A study of Mus musculus with 5 samples.

Results

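The 6 genes that encode the TAL1 transcription factor complex and the erythroid factor NF-E2 were followed through mouse blood progenitors: Tal1, Lmo2, Lyl1, Ldb1, Cbfa2t3 and Nfe2. They were taken by symbol, and all 6 were found among the 27998 genes of the count matrices. The cells came from bone marrow of healthy wild-type C57BL/6 mice, sorted by flow cytometry into 4 gates, with no treatment named. All 4 gates were lineage-negative (Lin-) and KIT+. LSK cells were also SCA1+, the gate that holds blood stem cells (HSC). In the SCA1- gates, common myeloid progenitors (CMP) were CD34+ CD16/32-, granulocyte/monocyte progenitors (GMP) CD34+ CD16/32+, and megakaryocyte/erythroid progenitors (MEP) CD34- CD16/32-. The labels give no age, sex or number of pooled animals. Each gate was 1 library of droplet-based 3' single-cell RNA-seq, so no difference between gates has a replicate check, and no test was made.

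TAL1 (SCL) is a basic helix-loop-helix protein that binds DNA at E-box motifs together with an E protein such as the product of Tcf3. It is joined to GATA1 or GATA2 at neighbouring GATA motifs through the LIM-only bridge LMO2 and the LIM-binding protein LDB1, and LYL1 is its close relative. ETO2, the product of Cbfa2t3, is a corepressor that joins the complex and is best known from early erythroid and megakaryocytic cells. NF-E2 is a dimer of the basic leucine zipper protein encoded by Nfe2 with a small MAF protein, and is required for platelet release by megakaryocytes. Tal1 and Lmo2 are needed for all blood formation in the embryo, and in the adult Tal1 acts mainly in the erythroid and megakaryocytic lines.

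All 6 are protein-coding genes in the GENCODE M21 annotation of GRCm38. Tal1 lies at chr4:115056426-115071755 on the plus strand, Lmo2 at chr2:103957986-103981878 (plus), Lyl1 at chr8:84701457-84704715 (plus), Ldb1 at chr19:46031570-46045214 (minus), Cbfa2t3 at chr8:122625141-122699109 (minus) and Nfe2 at chr15:103248212-103258403 (minus). The 250 bases before a transcript start are shown for the 4 members with an entry in the RefSeq promoter table (GRCm38.p6), because the complex reads the 2 motifs marked in them. Capitals mark GATAA (or TTATC on the other strand) and the E-box CANNTG, which reads the same on both strands, and letters run 5' to 3' on the strand of the gene.
Tal1, chr4:115056176-115056425, plus strand: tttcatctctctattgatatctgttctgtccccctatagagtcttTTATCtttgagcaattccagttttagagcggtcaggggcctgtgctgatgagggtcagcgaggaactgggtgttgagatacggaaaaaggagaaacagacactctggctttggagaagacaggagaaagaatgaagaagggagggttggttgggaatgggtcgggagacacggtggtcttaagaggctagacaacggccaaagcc
Lyl1, chr8:84701207-84701456, plus strand: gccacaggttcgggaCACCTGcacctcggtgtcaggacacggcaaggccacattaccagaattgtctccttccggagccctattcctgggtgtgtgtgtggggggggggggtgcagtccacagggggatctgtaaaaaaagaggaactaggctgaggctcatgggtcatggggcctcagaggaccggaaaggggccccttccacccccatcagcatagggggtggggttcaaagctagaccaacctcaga
Ldb1, chr19:46037071-46037320, minus strand: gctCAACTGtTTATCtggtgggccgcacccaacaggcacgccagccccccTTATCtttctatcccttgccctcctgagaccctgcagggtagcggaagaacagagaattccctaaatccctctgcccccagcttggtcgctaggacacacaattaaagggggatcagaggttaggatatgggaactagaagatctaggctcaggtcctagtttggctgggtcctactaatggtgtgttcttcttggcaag
Cbfa2t3, chr8:122699110-122699359, minus strand: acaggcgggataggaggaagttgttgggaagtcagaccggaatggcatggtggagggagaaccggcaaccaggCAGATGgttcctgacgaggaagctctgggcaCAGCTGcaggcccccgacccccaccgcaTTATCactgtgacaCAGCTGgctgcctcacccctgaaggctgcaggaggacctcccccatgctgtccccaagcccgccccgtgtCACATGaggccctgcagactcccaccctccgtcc
The Tal1 window holds 1 GATAA match, 205 bases before the start. The Lyl1 window holds no GATAA match and 1 E-box, 235 bases before the start. The Ldb1 window is that of the third start listed, shown because it holds both motifs, and lies in an intron of the gene. It holds 2 GATAA matches, 240 and 200 bases before that start, and 1 E-box 247 bases before it. The Cbfa2t3 window holds 1 GATAA match at 118 bases and 4 E-boxes at 177, 146, 104 and 34 bases. The Tal1, Lyl1 and Cbfa2t3 windows lie just outside the annotated gene. Of 32851 RefSeq promoter windows of the same 250 bases, 22.6% hold a GATAA match and 66.2% an E-box, and of the 8 starts listed for these 4 genes 3 windows hold a GATAA match and 4 an E-box. The windows of the other 2 Ldb1 starts and of the other Tal1 start hold neither, and that of the other Cbfa2t3 start holds 1 E-box. No window of the 8 holds the NF-E2 motif TGANTCA, found in 6.75% of all windows. A match describes letters and is not a binding site.

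The analysis used 10870 LSK, 3713 CMP, 8027 GMP and 6284 MEP cells with 26919088 to 80273121 unique molecular identifiers (UMIs, counted RNA molecules) per library and a median of 5991.5 (LSK) to 12578 (MEP) UMIs per cell. The 2 CMP samples of the series held identical matrices and were counted as 1. Across libraries, 796 of the 28894 cells carried a barcode also seen in another library. Levels are UMIs of a gene scaled to a library total of 1000000 UMIs (CPM). The antigens of the gates followed the labels at the RNA level for Ly6a, which encodes SCA1, with 78.2 CPM in LSK and 0.112 to 1.49 elsewhere, for Cd34, with 0.498 CPM in MEP and 118 to 399 elsewhere, and for Fcgr3, with 208 CPM in GMP and 0.149 to 13.9 elsewhere. Fcgr2b, the other gene of the CD16/32 antigen, separated GMP and CMP less, with 61.5 CPM in GMP, 33.8 in CMP and 0.336 to 6.31 elsewhere. Intervals are 95% intervals for counting error only, and a sum over a library cannot tell fewer expressing cells from less RNA per cell.

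Tal1, the DNA-binding subunit, had the widest span of the 6 genes, highest in MEP and lowest in GMP. Its level was 40.1 CPM in LSK (38.7 to 41.6), 18.6 CPM in CMP (17.1 to 20.4), 6.68 CPM in GMP (6.10 to 7.30), but 78.8 CPM in MEP (76.9 to 80.8). No 2 of these intervals overlapped. Lyl1, its relative, went a different way, highest in LSK at 240 CPM (236 to 243), then GMP at 134 (131 to 137), CMP at 115 (111 to 119) and MEP at 87.0 (85.0 to 89.1). MEP was thus the highest library for Tal1 and the lowest for Lyl1. Lyl1 lies wholly inside the annotated span of Nfix, a gene on the opposite strand with 603 to 4076 UMIs per library, and the sources used here do not say whether counting used the strand.

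The 2 bridging subunits also differed in their order. LSK had 902 CPM of Lmo2 (896 to 909), CMP 422 (415 to 430), MEP 368 (363 to 372) and GMP 285 (281 to 289), so that every library held it and LSK stood highest. MEP had 74.8 CPM of Ldb1 (72.9 to 76.7), LSK 51.8 (50.2 to 53.4), CMP 24.1 (22.3 to 26.0) and GMP 14.2 (13.4 to 15.1), the same order as Tal1. Cbfa2t3, the corepressor gene, had 150 CPM in LSK (148 to 153), 95.7 in MEP (93.6 to 97.9), 63.9 in CMP (60.9 to 66.9) and 35.1 in GMP (33.7 to 36.5). For Nfe2, LSK stood at 114 CPM (111 to 116), CMP at 57.1 (54.3 to 60.1), GMP at 55.2 (53.6 to 57.0) and MEP at 54.0 (52.4 to 55.6). The CMP, GMP and MEP intervals of Nfe2 overlapped, so those 3 libraries did not differ beyond counting error at this scaling, while every neighbouring pair of libraries was apart for the other 5 genes. GMP was the lowest library for Tal1, Lmo2, Ldb1 and Cbfa2t3.

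**Figure D1:**
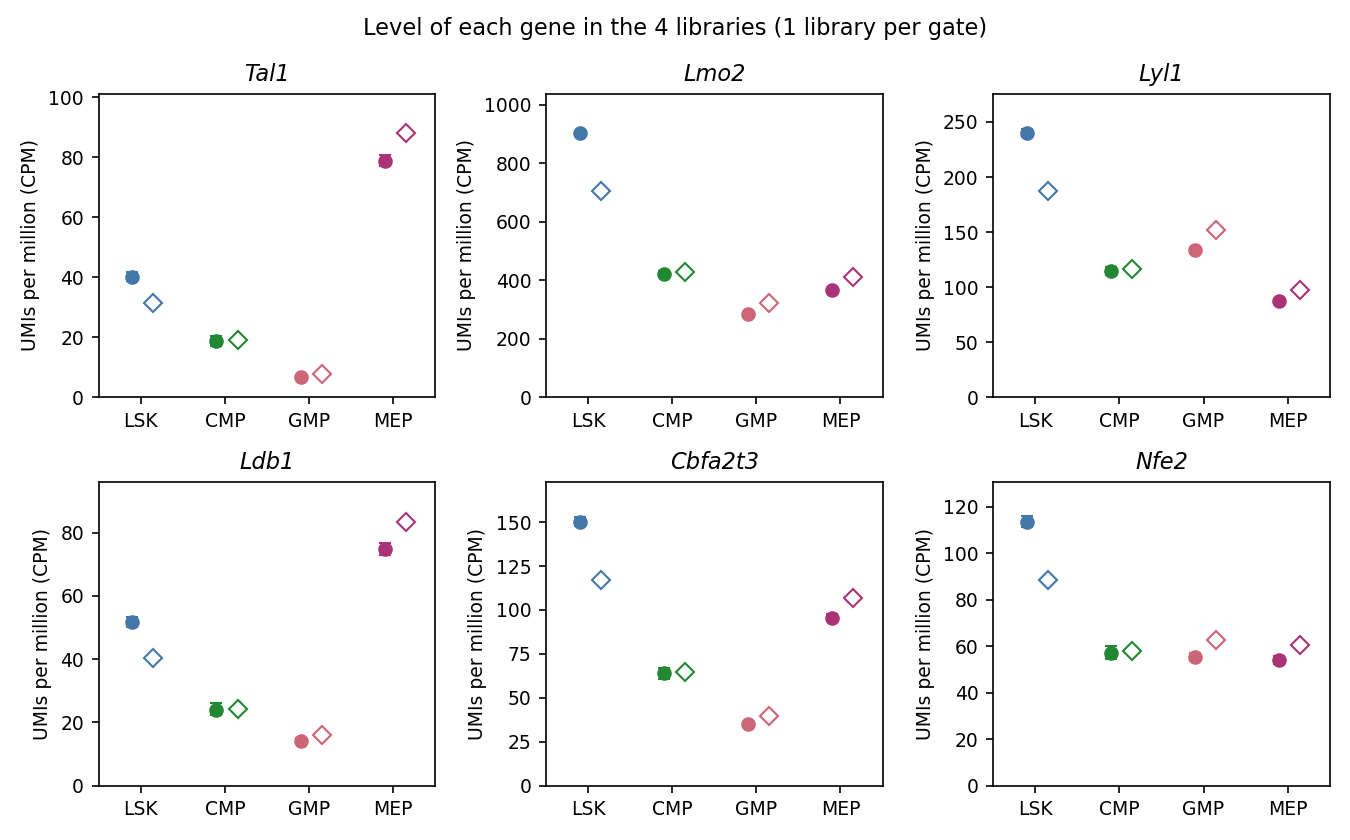
Level of each gene in the LSK, CMP, GMP and MEP libraries, in CPM on a linear axis from 0. Dots are CPM with 95% counting intervals and hollow diamonds the same levels scaled by median-of-ratios factors. Tal1 and Ldb1 stand highest in MEP and the other 4 genes in LSK, under both scalings.

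Tal1 and Ldb1 differed most between GMP and MEP, and the counts for this pair of libraries were the same under all 3 scalings. A gene was counted as higher where its level was 10 CPM or more and 2-fold or more that of the other library. By this rule 3 of the 6 genes were higher in MEP than in GMP, where 12.8% of all 7170 genes tested were, and 0 were higher in GMP, where 13.8% were. With median-of-ratios factors the counts were again 3 (12.3% of all) and 0 (14.1%), and with TMM factors 3 (12.5%) and 0 (13.9%). Tal1 was 11.8-fold higher in MEP, a GMP over MEP log2 ratio of -3.56 (-3.70 to -3.43). Ldb1 was 5.26-fold higher (log2 -2.39, -2.49 to -2.30) and Cbfa2t3 2.73-fold higher (log2 -1.45, -1.51 to -1.38). The ratios of Lmo2 (log2 -0.37, -0.39 to -0.34) and Lyl1 (log2 0.62, 0.58 to 0.67) stayed under 2-fold in opposite directions. That of Nfe2 was 0.03 (-0.03 to 0.09), so the MEP and GMP levels of Nfe2 were within counting error of each other. The median over all genes tested was -0.18.

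CMP lay between GMP and MEP for Tal1 and Ldb1. Against CMP, MEP was higher for these 2 genes of the 6, with 10.9% of all genes higher in MEP: the CMP over MEP log2 ratio was -2.08 (-2.21 to -1.95) for Tal1 and -1.64 (-1.75 to -1.52) for Ldb1. The remaining ratios ran from -0.58 for Cbfa2t3 to 0.40 for Lyl1, and 0 genes of the 6 were higher in CMP against 14.6% of all. Both counts held with median-of-ratios factors (14.1% and 13% of all genes) and TMM factors (13.6% and 13.2%). Between CMP and GMP only Tal1 passed, 2.79-fold higher in CMP (log2 1.48, 1.30 to 1.66), where 5.32% of all genes did, or 4.17% with median-of-ratios and 4.36% with TMM factors. None of the 6 was higher in GMP, where 2.99%, 3.97% and 3.81% of all genes were under the same 3 scalings. Cbfa2t3 (log2 0.86), Ldb1 (0.76) and Lmo2 (0.57) leaned to CMP without reaching 2-fold. The Lyl1 ratio was -0.22 and that of Nfe2 0.05 (-0.04 to 0.13), and with median-of-ratios factors the Nfe2 ratio was -0.11 (and, for CMP over MEP, -0.06 in place of 0.08).

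Ratios that involve LSK depended on how the libraries were scaled. With CPM, 5 of the 6 genes were higher in LSK than in CMP against 12.3% of all genes, with log2 ratios from 1.07 for Lyl1 to 1.23 for Cbfa2t3, and Nfe2 at 0.99 just under the rule. The 6 ratios lay close together, from 1.99-fold to 2.35-fold. Median-of-ratios factors, taken over the 13767 genes seen in every library, moved every LSK over CMP log2 ratio by -0.38. Trimmed-mean (TMM) factors moved it by -0.31, and with either 0 of the 6 genes passed, against 5.35% and 6.19% of all genes. None was higher in CMP under any of the 3 scalings, where 2.05%, 5.87% and 4.9% of all genes were. All 6 ratios stayed above 0, from 0.61 for Nfe2 to 0.86 for Cbfa2t3 with median-of-ratios factors. The shares of all genes called in LSK and in CMP were 12.3% and 2.05% by CPM and 5.35% and 5.87% with those factors. The median log2 ratio of all genes tested was 0.21 by CPM, -0.21 with median-of-ratios and -0.14 with TMM factors. No scaling thus set the typical tested gene equal.

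Against GMP, 5 of the 6 genes were higher in LSK by CPM, with 21% of all genes higher there, and 0 were higher in GMP, against 5.13%. The LSK over GMP log2 ratio was 2.59 for Tal1, 2.10 for Cbfa2t3, 1.86 for Ldb1, 1.66 for Lmo2, 1.04 for Nfe2 and 0.84 for Lyl1. With median-of-ratios factors (shift -0.54) and TMM factors (shift -0.45), 4 passed, without Nfe2, against 9.95% and 11.2% of all genes. None was higher in GMP with either, where 16.2% and 13% of all genes were. Tal1 remained 4.13-fold and Cbfa2t3 2.95-fold higher in LSK with median-of-ratios factors. The median log2 ratio of all genes tested was 0.29 by CPM, -0.31 with median-of-ratios and -0.21 with TMM factors.

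Between LSK and MEP the 6 genes went in both directions. With CPM, Lmo2 (log2 1.30), Lyl1 (1.46) and Nfe2 (1.07) were higher in LSK, 3 of 6 against 24.9% of all genes, and 0 were higher in MEP, against 9.16%. Tal1 was at -0.98 and Ldb1 at -0.53. With median-of-ratios factors (shift -0.52) 0 were higher in LSK and 2, Tal1 (-1.49) and Ldb1 (-1.05), were higher in MEP, and the shares of all genes became 15.6% and 24.9%. With TMM factors (shift -0.44) it was 1 each way, Lyl1 (1.03) in LSK and Tal1 (-1.41) in MEP, against 16.9% and 21.7%. The signs of these 6 ratios were the same under all 3 scalings. That Tal1 and Ldb1 leaned to MEP while Lmo2, Lyl1 and Nfe2 leaned to LSK did not depend on the scaling, and which of them reached 2-fold did. The median log2 ratio of all genes tested was 0.16 by CPM, -0.45 with median-of-ratios and -0.36 with TMM factors. Both sets of factors thus left the typical tested gene further from equal than CPM did.

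**Figure D2:**
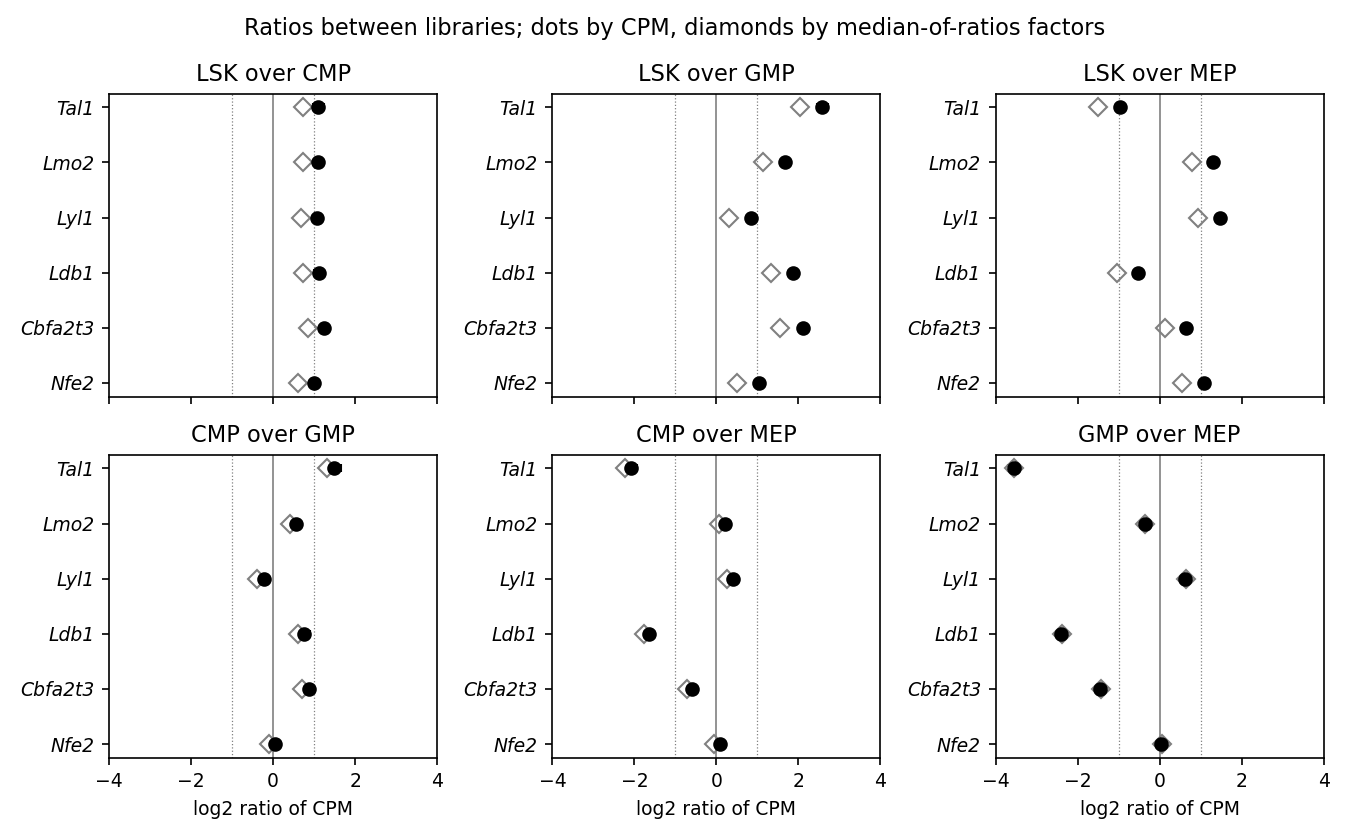
Log2 ratio of CPM between each pair of libraries for the 6 genes, with 95% counting intervals (mostly inside the dot), and hollow diamonds for median-of-ratios factors. Dotted lines mark 2-fold. Diamonds lie left of the dots by 0.38 to 0.54 where LSK is the first library and nearly on them for GMP over MEP.

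The share of cells with at least 1 UMI gave the same order of libraries as CPM for 5 of the 6 genes, and for Nfe2 the close GMP and MEP values changed places. Each cell was thinned to 2000 UMIs, since depth per cell differed between the libraries, and 36 CMP cells with fewer were left out. Tal1 was then seen in 14.2% of MEP, 7.86% of LSK, 3.97% of CMP and 1.25% of GMP cells (unthinned 57.9%, 22.9%, 11.8% and 5.74%). Monocyte-like GMP cells, named from clusters described further on and 3869 of the 7512 GMP cells clustered, gave 0.724% thinned and 3.90% unthinned at a median of 9306 UMIs, against 9100 for all GMP cells. In the same order of libraries, Ldb1 was seen in 14.3%, 9.65%, 5.79% and 2.75% of cells (unthinned 57.7%, 28.5%, 15.5% and 12.03%), and the monocyte-like GMP share was 2.66%. Cbfa2t3 was seen in 19.5%, 27.3%, 13.8% and 7.30% (unthinned 64.2%, 59.6%, 33.4% and 25.9%).

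Lmo2 was seen in 51.6% of MEP, 82.0% of LSK, 54.1% of CMP and 42.0% of GMP cells after thinning (unthinned 94.7%, 97.9%, 86.3% and 85.9%). Dendritic-like CMP cells gave 12.9% for Lmo2 at a median of 4700 UMIs. Lyl1 was seen in 15.8%, 38.3%, 18.9% and 22.6% of cells (unthinned 60.1%, 74.3%, 50.6% and 65.7%) and Nfe2 in 11%, 22.2%, 12.1% and 10.8% (unthinned 47.6%, 51.6%, 32.2% and 37.7%), with 8.60% and 1.08% in the dendritic-like CMP cells. At this depth 25.0% of LSK cells showed 3 or more of the 6 genes, against 10.1% of MEP, 6.17% of CMP and 2.66% of GMP cells, with doublets removed. The share with none of the 6 was 6.30% in LSK and 36.1% in GMP.

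**Figure D3:**
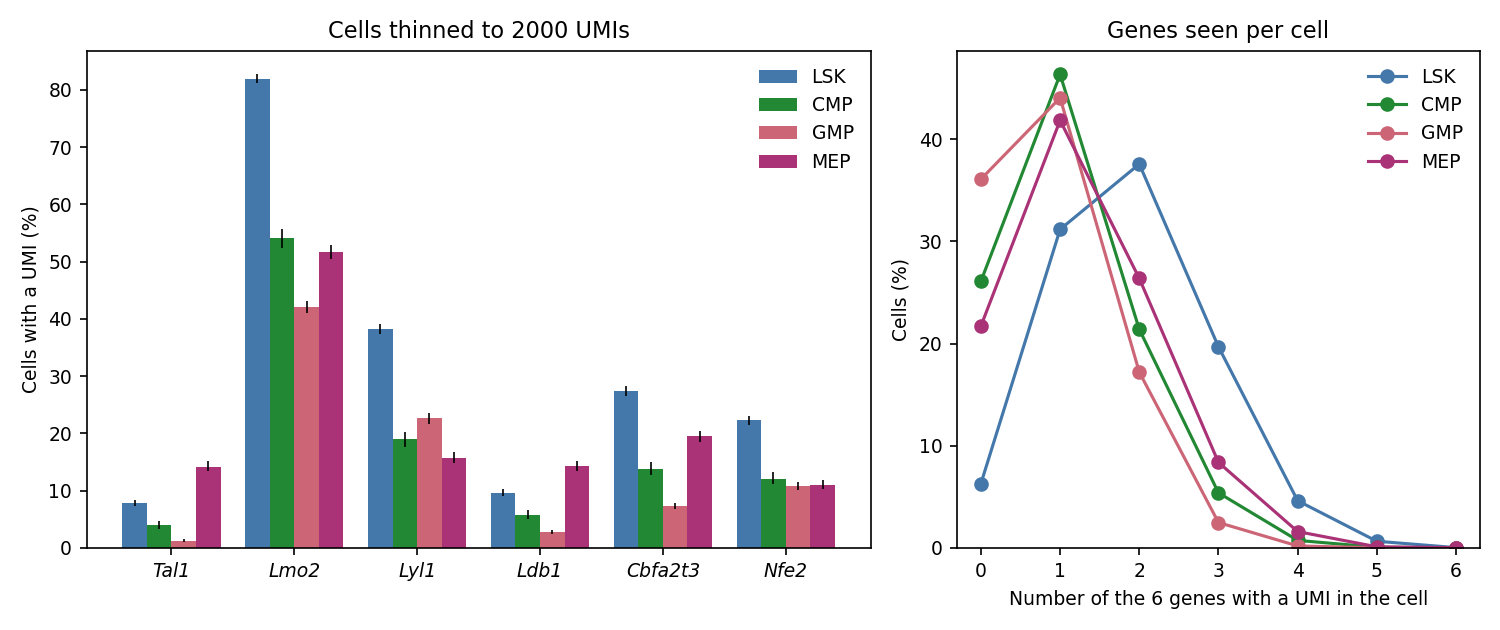
Left, percent of cells with a UMI of each gene after thinning to 2000 UMIs, with exact 95% intervals; right, percent of cells by how many of the 6 genes were seen. MEP has the tallest bars for Tal1 and Ldb1 and LSK for the other 4, and LSK cells most often show 2 of the genes.

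Pairs of members were seen in the same cell about as often as their shares within clusters gave, though the intervals do not show independence. For the 15 pairs in the 4 libraries, the number of cells with both was divided by the number expected from the product of the shares within clusters. Over the 60 combinations the ratio ran from 0.69 to 1.31 with a median of 1.01, and its counting interval included 1 in 59. The exception was Lmo2 with Nfe2 in GMP, at 1.11 (1.005 to 1.23). It did not hold with cells thinned to 4000 UMIs, where this ratio was 1.005 (0.940 to 1.07). The single interval without 1 at that depth was that of Lyl1 with Nfe2 in GMP, at 1.09 (1.003 to 1.18). Each interval takes the expected number as fixed, and is too wide where a gene was seen in most cells, such as Lmo2 in LSK. Other pairs rested on few cells and could not show an association, such as Tal1 with Ldb1 in GMP (4 cells, 0.35 to 3.31). Tal1 and Lmo2 were seen together in 651 LSK cells, where 639 were expected, and Tal1 and Ldb1 in 122 MEP cells, where 117 were expected. With shares of the whole library in place of clusters, these ratios were 1.03 and 1.02, already near 1. In CMP the ratio without clusters was 1.70 for Tal1 with Nfe2 (1.31 within clusters). It was 0.85 for Tal1 with Lyl1 (0.98 within clusters) and 0.81 for Ldb1 with Nfe2 (0.69).

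The cells were clustered without the 6 genes, which gave 20 clusters, most of them nearly of 1 library. Clusters were named from marker lists, with "-like", and those that did not meet the naming rule are given by number. The clusters and contrasts below were picked after their values were seen, and describe these libraries. In MEP, clusters 4, 8, 10 and 11 were erythroid-like and cluster 15 megakaryocyte-like. In LSK, cluster 0 was HSC/multipotent-like and clusters 6 and 12 lymphoid-primed-like. Cluster 6 had Dntt among its leading genes, behind Fam64a, Hist1h2ap and Cep55. Cluster 1 was unnamed, with Clec1a, Nupr1, Mmrn1 and Procr among its leading genes. HSC/multipotent markers that passed the 2-fold rule numbered 7 in cluster 1 and 5 in cluster 0. With the members among the clustering genes, the cluster led by Clec1a, Mmrn1 and Procr took the HSC/multipotent name. A cluster with Dntt, Shisa8 and Padi4 among its leading genes then took the lymphoid-primed name. Shisa8 and Padi4 were also leading genes of cluster 0. The name of cluster 0 thus does not mark the LSK cluster with most stem cell markers. In GMP, clusters 2 and 7 were monocyte-like and cluster 5 granulocyte-monocyte progenitor-like, while cluster 9 (Cebpe, Wfdc21) and cluster 16 (Prss34, Prg2, Epx) were unnamed. In CMP, cluster 14 was monocyte-like and cluster 17 dendritic-like, while cluster 3 (Cxcl2, Ccl4, Ccl3) and cluster 13 were unnamed. Leading genes of cluster 13 were, in order, Phlda1, Ms4a2, Csrp3, Egr1, Apoe, Btg2, Tuba8, Nr4a1 and Itga2b.

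**Figure D4:**
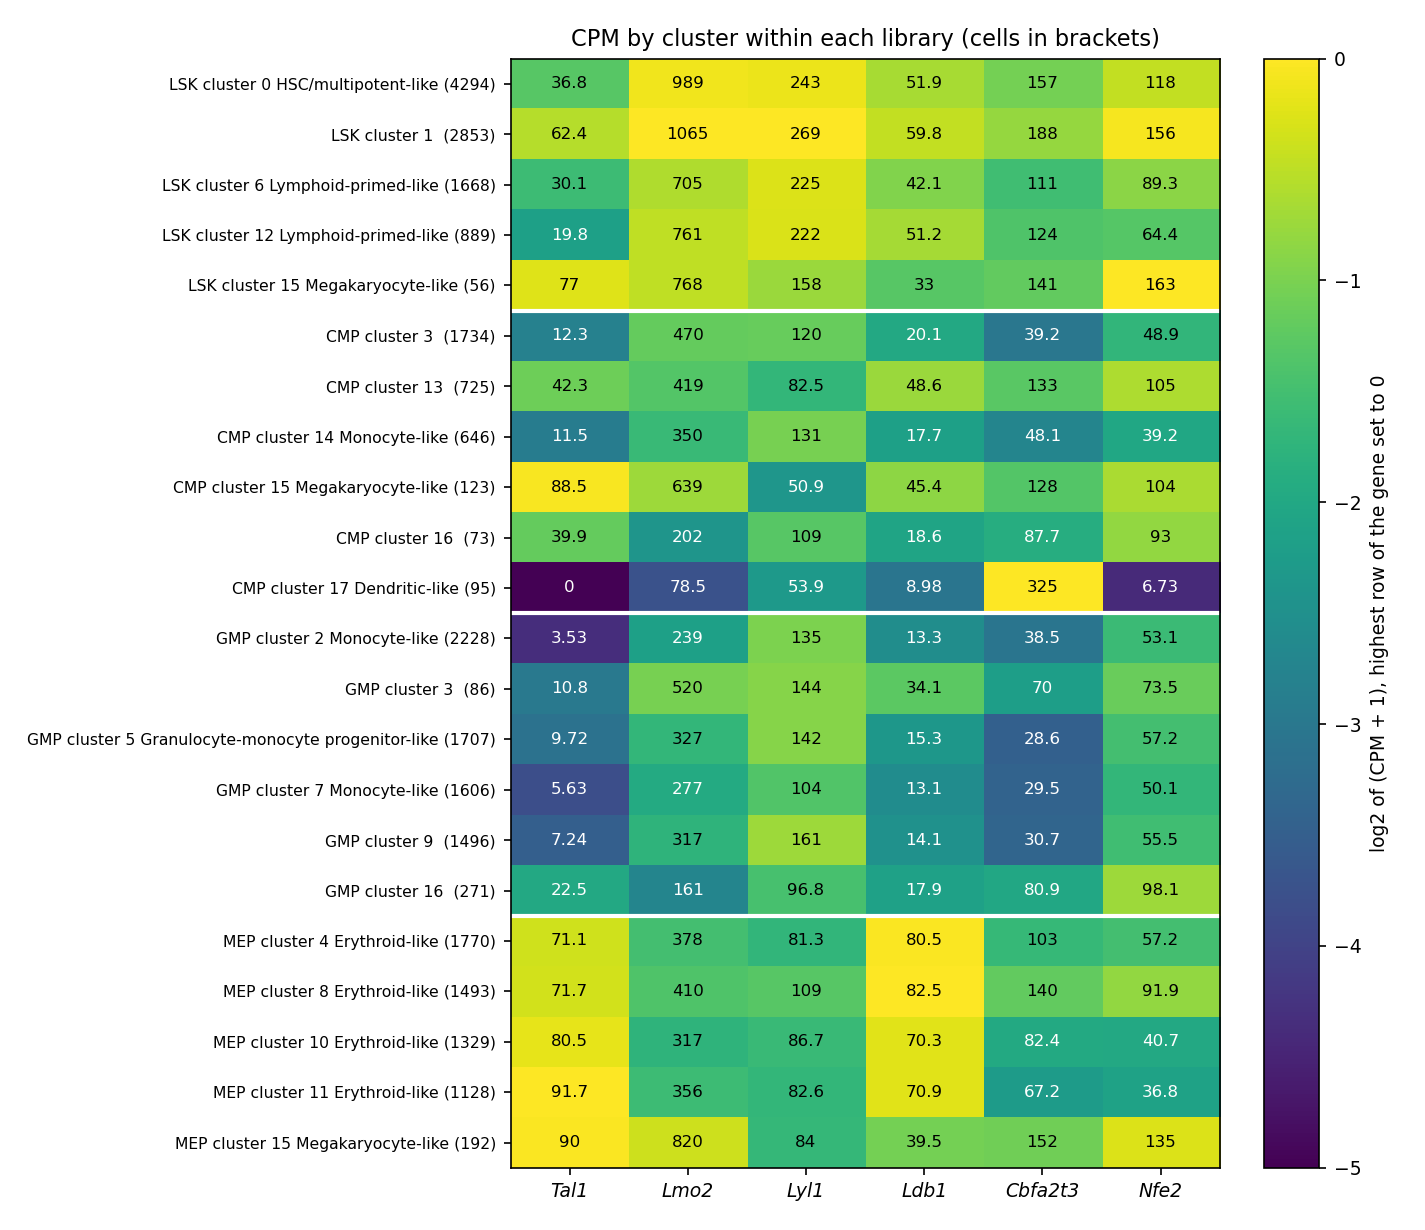
CPM of the 6 genes in each cluster of 50 or more cells within each library. Colour is the log2 of CPM + 1 with the highest row of each gene set to 0. Tal1 runs from 0 in dendritic-like CMP cells to 91.7 in MEP cluster 11, and Cbfa2t3 is highest, at 325, where Tal1 is at 0.

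The dendritic-like cells of CMP, 95 cells that carry MHC class II genes and Batf3, split Cbfa2t3 from the other 5 genes. Cbfa2t3 had 325 CPM there (275 to 383) against 58.9 CPM in all other CMP cells, 5.53-fold higher (log2 2.47, 2.21 to 2.71), the highest level of this gene in any cluster of 50 or more cells within a library. Tal1 had 0 UMIs (0 to 8.28 CPM) against 19.2 CPM, 2.85-fold lower with its count raised to the floor of 3. That fold is not a 95% limit. Lmo2 had 78.5 CPM against 430 (log2 -2.45, -2.98 to -1.98) and Lyl1 53.9 against 116 (log2 -1.11, -1.75 to -0.53). Ldb1 rested on 4 UMIs, 8.98 CPM against 24.2 (log2 -1.43, -3.31 to -0.07), and Nfe2 on 3 UMIs, 6.73 CPM against 57.8 (log2 -3.10, -5.38 to -1.55). One of the 6 genes was thus higher, with 16.2% of all genes higher, and the other 5 were lower, with 12.9% lower.

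After thinning, Cbfa2t3 was seen in 52.7% of 93 dendritic-like CMP cells, and Tal1 in 0 of 93, which by 3 counts of the total allows a share of cells with a UMI of up to 3.23%. The share in all CMP cells at that depth was 3.97%, so thinned cells this few hardly separate the groups. Without thinning Tal1 was seen in 0 of the 139 dendritic-like cells of all 4 libraries, which by the same rule allows up to 2.16%. Only some partners of the complex are given for these cells of CMP, and the others may differ. Gata1 and Erg had 0 UMIs, with 18.5 and 22.4 CPM in the whole CMP library. Gata2 had 4.49 CPM against 64.3 in the other CMP cells, and Tcf3 had 69.6 against 70.2. Id2, an inhibitor of E proteins and a gene of dendritic cells, had 1317 CPM against 7.99.

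Cluster 13 of CMP, with 725 cells, had 4 of the 6 genes above the other CMP cells together, where 8.14% of all genes were. Tal1 had 42.3 CPM against 15.4 (log2 1.46, 1.16 to 1.75), Ldb1 48.6 against 20.3 (1.26, 0.99 to 1.52), Cbfa2t3 133 against 53.2 (1.32, 1.16 to 1.48) and Nfe2 105 against 49.7 (1.09, 0.91 to 1.26). Lmo2 was level at 419 and 424 CPM, and Lyl1 had 82.5 against 120 CPM. None was lower by the rule, where 4.28% of all were, and the median log2 ratio of all genes was 0.11. The DNA-binding partners Gata1 (91.8 against 7.68 CPM) and Gata2 (248 against 35.8) and the erythroid target Klf1 (74.0 against 3.28) were higher in the same cells, whose median depth was 3983 UMIs.

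The megakaryocyte-like cells were the only class found in 3 libraries with 50 or more cells each, and the 6 genes did not behave alike in them. In CMP (123 cells) Tal1 had 88.5 CPM against 16.3 in the other CMP cells, 5.42-fold higher (log2 2.44, 2.07 to 2.79). Cbfa2t3 had 128 against 61.1 (log2 1.07, 0.78 to 1.34), and Nfe2 (104 against 55.2), Ldb1 (45.4 against 23.2) and Lmo2 (639 against 416) leaned the same way under 2-fold. Lyl1 was lower, 50.9 against 117 CPM (log2 -1.21, -1.66 to -0.79). So 2 of the 6 were higher, with 10.6% of all genes, and 1 was lower, with 7.58%. The median log2 ratio of all genes was 0.13.

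In MEP the megakaryocyte-like cells (192 cells) were set against the erythroid-like cells (5720 cells). Nfe2 had 135 against 53.0 CPM, 2.56-fold higher (log2 1.35, 1.10 to 1.60), and Lmo2 820 against 362, 2.27-fold higher (log2 1.18, 1.08 to 1.28), 2 of 6 genes where 17.3% of all were higher. Tal1 was the same within counting error at 90.0 and 78.9 CPM (log2 0.19, -0.13 to 0.49), and so was Lyl1 at 84.0 and 87.1. Ldb1 leaned the other way, 39.5 against 75.8 CPM (log2 -0.94, -1.42 to -0.49), and Cbfa2t3 had 152 against 94.3. None of the 6 was higher in the erythroid-like cells by the rule, where 6.19% of all genes were. Among partners, Fli1 had 166 against 3.62 CPM, Gata2 219 against 37.5 and Gata1 61.3 against 126.

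In LSK the 56 megakaryocyte-like cells had 77.0 CPM of Tal1 against 39.4 in the other LSK cells (log2 0.97, 0.44 to 1.45) and 163 against 113 CPM of Nfe2. None of the 6 genes passed the rule there, where 5.58% of all genes were higher and 9.49% lower. Across the 3 libraries the megakaryocyte-like cells held Tal1 at 77.0, 88.5 and 90.0 CPM in LSK, CMP and MEP, with overlapping intervals. Lyl1 was at 158 (124 to 200), 50.9 (37.3 to 67.9) and 84.0 CPM (67.1 to 104), so that LSK stood apart from CMP and MEP.

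Within the erythroid-like cells of MEP, Tal1 and Ldb1 changed little between clusters while Cbfa2t3 and Nfe2 differed by more than 2-fold. Cluster 11 carried the most globin RNA, with 364 CPM of Hba-a1 against 22.8 CPM in cluster 8. Cbfa2t3 had 67.2 CPM in cluster 11, 82.4 in cluster 10, 103 in cluster 4 and 140 in cluster 8. Nfe2 had 36.8, 40.7, 57.2 and 91.9 CPM in the same clusters. Between clusters 11 and 8 the log2 ratio was -1.06 (-1.17 to -0.95) for Cbfa2t3 and -1.32 (-1.46 to -1.18) for Nfe2, 2 of 6 genes where 8.27% of all were higher in cluster 8. None was higher in cluster 11, where 5.57% of all were.

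Tal1 had 91.7 CPM in cluster 11 and 71.7 in cluster 8 (log2 0.35, 0.23 to 0.48). Ldb1 had 70.9 and 82.5 CPM, Lmo2 356 and 410, and Lyl1 82.6 and 109. Gata1 (143 and 123 CPM) and Gfi1b (109 and 107), which encodes a repressor of the same complexes, were also near level, while Gata2 had 10.9 CPM in cluster 11 and 105 in cluster 8. The median depth was 16930 UMIs per cell in cluster 11 and 6835 in cluster 8, and Mki67, a proliferation gene, had 300.0 and 50.3 CPM. The part of depth and proliferation in these ratios was not tested.

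Within LSK, Tal1 and Nfe2 separated the unnamed cluster 1 from the lymphoid-primed-like cluster 12. Tal1 had 62.4 CPM in cluster 1 and 19.8 in cluster 12 (log2 1.65, 1.38 to 1.94), and Nfe2 156 and 64.4 (log2 1.28, 1.12 to 1.44), 2 of 6 genes where 6.27% of all were higher in cluster 1. None was higher in cluster 12, where 3.33% of all were. The other 4 genes leaned to cluster 1 by less: Lmo2 had 1065 and 761 CPM, Cbfa2t3 188 and 124, Lyl1 269 and 222, and Ldb1 59.8 and 51.2. Cluster 0, named HSC/multipotent-like although more of those markers passed in cluster 1, lay between them for Tal1 (36.8 CPM) and Nfe2 (118 CPM). Gata2 followed with 127 CPM in cluster 1 and 15.5 in cluster 12, and Tcf4, an E protein gene, went the other way with 103 and 198 CPM.

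Tal1 and Ldb1 were low in all 4 main clusters of GMP. Over clusters 2, 5, 7 and 9 Tal1 ran from 3.53 to 9.72 CPM and Ldb1 from 13.1 to 15.3 CPM. Between clusters 9 and 2, 0 of the 5 genes tested passed in either direction, where 2.37% and 2.77% of all did, and Tal1, under 10 CPM in both, was not tested. Cluster 16, 271 cells led by the basophil protease gene Prss34 and the eosinophil granule genes Prg2 and Epx, stood out. Tal1 had 22.5 CPM there against 6.31 in the other GMP cells (log2 1.84, 1.29 to 2.34), and Cbfa2t3 80.9 against 33.7 (log2 1.26, 0.99 to 1.53), 2 of 6 genes where 8.27% of all were higher. Nfe2 had 98.1 against 54.3 CPM (log2 0.85, 0.61 to 1.09), Lmo2 161 against 288 (log2 -0.84, -1.03 to -0.65) and Lyl1 96.8 against 136. None was lower by the rule, where 3.71% of all genes were. Another LIM-only gene, Lmo4, had 864 CPM against 50.4, and Gata2 had 271 against 6.72.

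**Figure D5:**
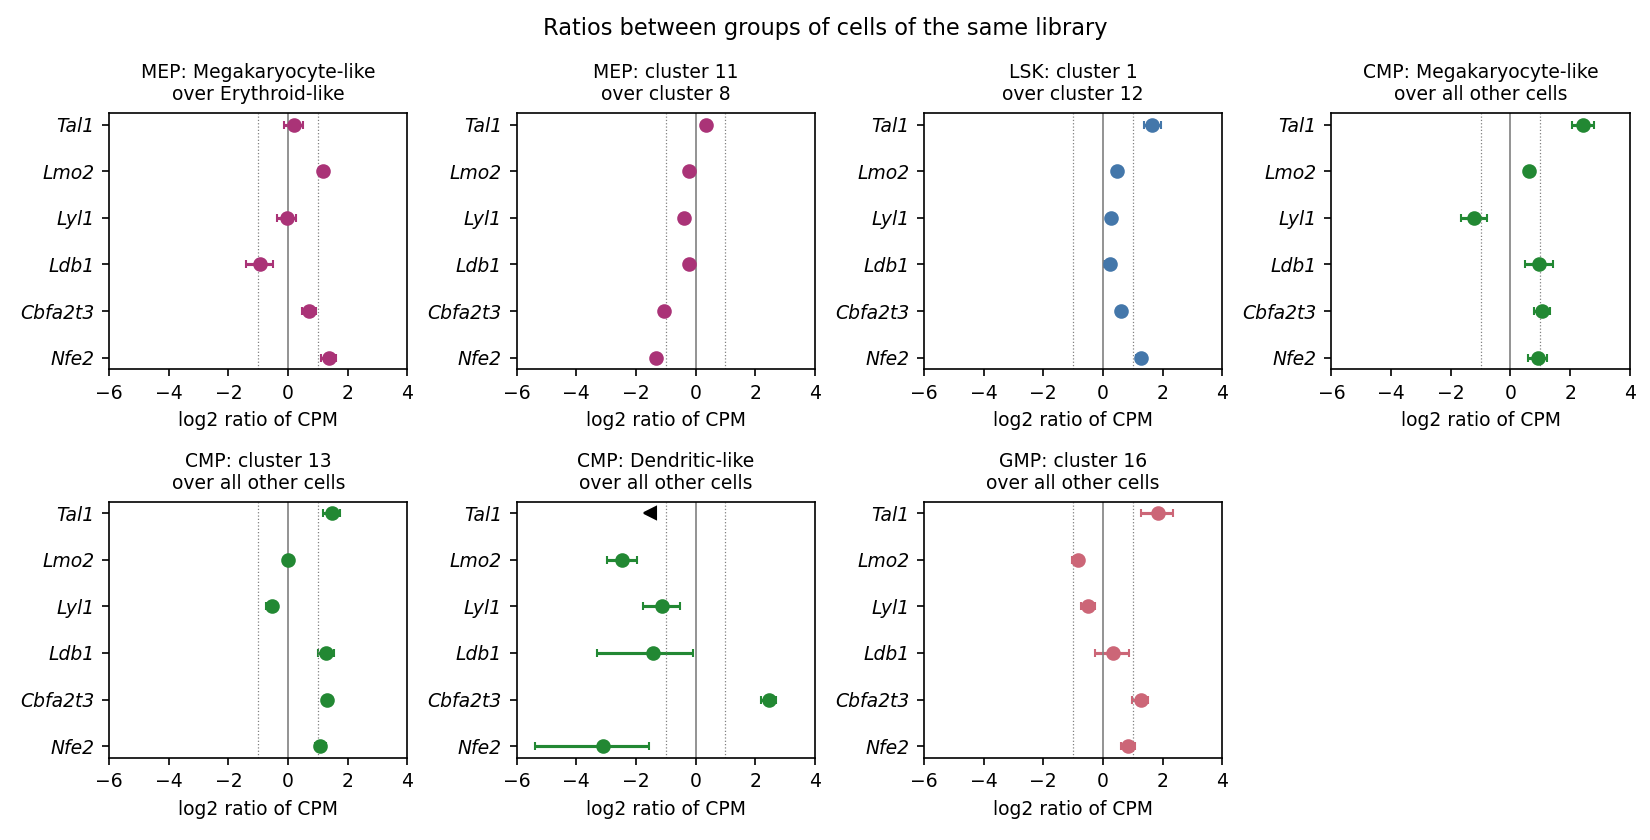
Log2 ratio of CPM between groups of cells of the same library, with 95% counting intervals. The black triangle is Tal1 in dendritic-like cells, at 0 UMIs and drawn with its count raised to 3. Cbfa2t3 is the single gene to the right of 0 in the dendritic-like panel.

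Other genes of the pathway were taken from 8 lists and compared between GMP and MEP, where scaling mattered least. The DNA-binding partners leaned to MEP with Tal1: 3 of 5 tested were higher in MEP and 0 in GMP, with a median log2 GMP over MEP ratio of -1.27 against -0.18 for all genes tested. Of all genes tested, 12.8% were higher in MEP and 13.8% in GMP, and the counts of the other lists are to be read against these shares. Gata1 had 1.55 CPM in GMP and 125 in MEP, Gata2 12.5 and 39.9, and Tcf3 48.5 and 117, while Tcf4 (24.8 and 30.02) and Tcf12 (20.5 and 31.0) did not pass. In LSK and CMP, Gata1 had 5.11 and 18.5 CPM and Gata2 70.2 and 63.2. The ETS and RUNX genes that bind with TAL1 in stem cells went the other way: Erg had 12.2 and 1.35 CPM in GMP and MEP, Fli1 34.3 and 5.94, and Runx1 62.3 and 19.9. Of that list of 4, 3 were higher in GMP and 1, Gata2, in MEP (median 2.09). Erg (67.9 CPM) and Fli1 (74.7) were highest in LSK, but Runx1 was highest in CMP (106 CPM, and 72.1 in LSK).

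The partners of LDB1 split. Ssbp3, which encodes one of the proteins that protect LDB1 from degradation, had 8.23 CPM in GMP and 96.5 in MEP, close to the fold of Tal1, while Ssbp2 (43.4 and 79.8) and Ssbp4 (62.4 and 82.3) did not pass. The LIM-only genes Lmo4 (68.1 and 10.0 CPM) and Lmo1 (36.3 and 0.374) were higher in GMP. Over the list 2 of 6 were higher in GMP and 1 in MEP, with a median of -0.04. Of 9 corepressor genes tested, 3 were higher in MEP and 1 in GMP (median -0.38), against 12.8% and 13.8% of all genes. Gfi1b had 0.722 CPM in GMP and 92.2 in MEP, Kdm1a, which encodes a histone demethylase, 22.0 and 57.8, Rcor1 28.7 and 68.6, and Irf2bp2 36.3 and 16.03. Hdac1 (118 and 148) and Ncor1 (182 and 198) were nearly level.

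Of the small MAF partners of NF-E2, Mafg varied little between libraries and Mafk more. Mafg had 51.2 CPM in MEP, 53.3 in GMP, 48.9 in CMP and 55.6 in LSK, and Mafk 11.1, 5.70, 16.5 and 19.0. Of 4 genes of this list tested between GMP and MEP, 1 was higher in MEP, Nfe2l2 (55.3 and 139 CPM), which encodes the stress factor NRF2, and 0 in GMP (median -0.45, or 0.08 over the 5 tested with median-of-ratios factors). Maff was seen mainly in CMP, with 20.4 CPM against 9.53 in LSK and under 1 in GMP and MEP. Of the Id genes, inhibitors of E proteins, Id1 was tested between GMP and MEP and was higher in GMP (18.3 and 0.287 CPM). Id3 had 54.9 CPM in CMP, 21.5 in LSK, 0.109 in GMP and 0.424 in MEP.

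All 8 known erythroid targets of the complex that were tested, of 11 listed, were higher in MEP than in GMP, where 12.8% of all genes were, with a median log2 ratio of -7.98. Klf1 had 422 CPM in MEP and 1.12 in GMP, Ermap 261 and 0.123, Hba-a1 106 and 0.627, and Epor 93.3 and 0.191. Hba-a1 and its near-identical copy Hba-a2 can share reads. Hbb-bt had 57.6 CPM in MEP and 0.600 in GMP but 42.1 in LSK, under 2-fold from MEP. The megakaryocyte targets, 8 listed, leaned to LSK and CMP over MEP. In CMP 5 of 5 tested were higher than in MEP, where 14.6% of all genes were. With median-of-ratios or TMM factors it was 4 of 5, against 13% and 13.2%. In LSK 5 of 6 tested were higher than in MEP, where 24.9% of all genes were. With the same factors it was 4 of 5, against 15.6% and 16.9%. Between GMP and MEP 1 of 2 tested was higher in each. Pf4 had 339 CPM in CMP, 88.5 in LSK, 75.9 in MEP and 4.36 in GMP.

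The genes whose level followed a member most closely over the 20 clusters were found by Pearson r of log2(CPM + 1) among 4548 genes, as a description. Clusters of 1 library share its depth, and the clusters are not independent samples. Tal1 was followed by Pgrmc1 (r = 0.97), Cr1l (0.92) and Abcg2 (0.91), and Ldb1 by Nefh (0.95), Car2 (0.95) and Rab4a (0.94). Nfe2 was followed by Tspan32 (0.91), Dnajb4 (0.85) and Msrb2 (0.84), and Lmo2 by Gtf2i (0.91), Pdcd7 (0.90) and Wdr89 (0.89). Cbfa2t3 was followed by Ube2q1 (0.92), Arl3 (0.90) and Paxbp1 (0.89), and Lyl1 by Rpl9-ps6 (0.92), Ccdc53 (0.84) and Phpt1 (0.83). Over the 18 clusters of 100 or more cells, a choice made after seeing the data, these 18 values ran from 0.77 to 0.96. Among the members themselves, over the 20 clusters, Lmo2 and Lyl1 were most alike (r = 0.77), followed by Tal1 and Lmo2 (0.72) and Tal1 and Ldb1 (0.64), with Tal1 and Lyl1 at 0.40. The order rested on the small clusters: over the 18 clusters Tal1 and Ldb1 led (0.85), followed by Lmo2 and Nfe2 (0.71) and Lmo2 and Lyl1 (0.68), with Tal1 and Lyl1 at 0.07.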

How the data were processed

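The deposited files hold raw UMI counts by gene and barcode, as the authors made them. Per the submitters' processing notes, the tools were Seurat 2.3.0, Cell Ranger 2.0.0 and CASAVA 1.8.2, with mm10 as the build. No source used here gives the authors' filters on cells. LSK barcodes with 2110 or more UMIs were taken as cells (10883, where the series states 10882). The CMP matrix holds 3738 barcodes where 12185 cells are stated, and the others were not analysed here. A cell was kept if it had at least 500 genes and no more than 10% of its UMIs were mitochondrial. The gate named in the labels gave each sample its group.

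UMIs were summed per library and divided by its total (CPM). Sums have exact Poisson, ratios conditional binomial and shares Clopper-Pearson intervals at 95%, all for counting error only, and the limit for a share of 0 is 3 counts of the total. Genes with 10 CPM or more in the higher group were tested, a call being a ratio of 2 or more, and counts under 3 were raised to 3 when ratios were taken. Doublets (1886, 0.8% per 1000 cells, by similarity to simulated pairs) stayed in the library sums and shares and were removed before clustering and pairs. Clustering used 2000 variable genes without the members, 30 principal components, 15 neighbours and Leiden resolution 1. A cluster was named where 3 markers of a class passed the 2-fold rule, the class led by a mean log2 ratio of 0.3, and its markers led among the top 10 genes. A class present in under 50 cells of a library was not compared there. The calculation was tested on simulated data.

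Named genes were the 6 members, up to 4 genes of each list with the highest CPM, genes called in a contrast described, the 3 genes most like each member and leading genes of clusters, apart from 1 gene that is not reported here. Id2, Mki67 and the cluster contrasts were chosen after their values were seen. The members and lists were chosen with earlier results of these data known. Gene positions are from GENCODE M21, which holds 27645 of 27998 gene identifiers, and 4 of the 6 members matched the RefSeq promoter table. Tools were Python 3.11.15, numpy 2.4.6, scipy 1.17.1, scikit-learn 1.9.0, leidenalg 0.10.2, R 4.3.3 and edgeR 4.0.16 (TMM factors). Alternatives were median-of-ratios and TMM factors, the mean of each cell's own CPM, other minimum levels, no cell filter, doublets removed, other thinning depths and other cluster resolutions.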

Additional observations from a re-analysis of the deposited data

Results flagged for a closer look

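The LSK matrix also holds barcodes under the minimum of 2110 UMIs, which none of the comparisons use, and all 6 genes were counted in them. Over 508787 such barcodes with 22122930 UMIs, Tal1 had 44.9 CPM, against 40.1 CPM in the LSK cells. Lmo2 had 894 CPM against 902, Lyl1 263 against 240 and Ldb1 38.2 against 51.8. Cbfa2t3 had 168 CPM against 150 and Nfe2 148 against 114. The ratio to the cells ran from 0.738 for Ldb1 to 1.30 for Nfe2. In the 426145 barcodes with under 100 UMIs, Tal1 had 45.1 CPM, Lmo2 890.3, Lyl1 234, Ldb1 52.7 and Nfe2 116. Cbfa2t3 was lower there than in the cells, at 121 CPM (102 to 142) against 150.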

How the results depend on the processing

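No paired analysis was possible because each gate is 1 library and the replicate numbers only name samples. Scaling moved the LSK contrasts. For LSK over CMP, 5 genes were higher in LSK, and 0 with median-of-ratios factors, 0 with TMM factors and 3 with the mean of cells' own CPM. For LSK over MEP, 3 were higher in LSK, and 0 with median-of-ratios and 1 with TMM factors, while 0 were higher in MEP, and 2 and 1 with those factors. For CMP over GMP, 1 was higher in CMP, and 0 with a minimum of 50 CPM and 2 with the mean of cells' own CPM. All genes higher in LSK than in CMP numbered 963 by CPM and 391 with median-of-ratios factors, and those higher in CMP 160 and 429. Of the 36 single log2 ratios, 29 moved beyond counting error with median-of-ratios factors, 27 with TMM factors and 25 with the mean of cells' own CPM, and 0 with the other alternatives. The level of a member in its highest cluster moved for 4 of the 6 genes at resolution 2, 2 at resolution 0.5 and 1 with the members among the clustering genes. The other counts of members stayed within 1.5 times under every alternative run, and no called ratio changed sign. With 1 library per gate, leaving out a replicate was not possible. The 24 shares of cells all moved when thinning was to 4000 UMIs or left out. Among the library sums of the members, Tal1 in GMP rests on the fewest counts, at 490 UMIs. Levels in small groups of cells rest on far fewer. The LSK megakaryocyte-like cells held 35 UMIs of Tal1 and 15 of Ldb1, and the dendritic-like cells of CMP 0 and 4.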
